A study of Rattus norvegicus with 7 samples.

Results

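The genes described here encode the proteins of the cytosolic ribosome. They were taken as the probe sets whose single gene symbol begins with Rpl or Rps and a digit, or is Rplp0, Rplp1, Rplp2 or Rpsa, leaving out the ribosomal S6 kinases. The rule gave 57 probe sets for 50 genes, of 31042 probe sets on the array that are not controls and 14217 genes named by a probe set of their own. A filter on dim signals kept 52 of them, for 46 genes, 15 of the small subunit and 31 of the large subunit. The paralogs and pseudogenes that bear such a symbol are among them.

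The study measured RNA of whole testis from adult Sprague-Dawley rats on 7 Affymetrix Rat230_2 arrays, 1 animal an array. The groups were untreated rats (n = 3) and rats 8 h (n = 2) and 20 h (n = 2) after a single intraperitoneal injection of 3 mg/kg cadmium chloride, which is known to damage the testis through its blood vessels. The labels name no mutant allele in any group and no vehicle injection for the untreated rats. Whole testis holds germ cells at every stage, Sertoli and Leydig cells, vessels and blood, and in such bulk samples fewer cells of a type and less RNA per cell cannot be told apart.

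A ribosome consists of a small subunit, which holds the mRNA and decodes it, and a large subunit, which forms the peptide bond. Each subunit is a core of ribosomal RNA with a single copy of nearly every ribosomal protein, so the genes for these proteins are usually expressed at matched levels. Their mRNAs in mammals typically begin with a C followed by a run of pyrimidines, the 5′ terminal oligopyrimidine (TOP) tract, through which the kinase mTOR and the RNA-binding protein LARP1 control their translation. Germ cells also use paralogs of some of these proteins, such as the Rpl39-like protein of mammalian sperm-forming cells.

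The start of the transcript is shown for 4 genes with a TOP tract, for the 3 genes whose signal was higher on every cadmium array than on every untreated one, and for a paralog. Each window runs from 20 bases before the RefSeq transcript start to 10 bases from it onward, 5′ to 3′ on the gene's strand, in the GRCr8 assembly. Rplp0 lies at chr12:46718381-46718410 on the minus strand, Rpl19 at chr10:83519044-83519073 on the plus strand, Rps15 at chr7:10068106-10068135 on the minus strand and Rpl35a at chr11:81235012-81235041 on the minus strand. Rpl11 lies at chr5:153560793-153560822, Rpl24 at chr11:58128396-58128425, Rpl5 at chr14:1995216-1995245 and Rpl39l1 at chr10:5966612-5966641, all on the minus strand. Capitals mark a TOP tract, defined as a C at most 3 bases from the start followed by at least 4 bases that are C or T, read on the gene's strand.
Rplp0: ctggtgaccgcaccgcacttCTCTCgccag
Rpl19: gagcccgcgaccagcaagctCTTTCCTTTC
Rps15: gcagccgctgacaccgcttcCTTTTCCCag
Rpl35a: gcgcggcgggtcttgccttcCTCTTTCCgc
Rpl11: gcccaggggacttgaagcttgtttggtgct
Rpl24: gaagggaatttagggaggagattctctacc
Rpl5: cagccactctctttcccacgtcgcttgcgt
Rpl39l1: ttttaactgccaggccgtcccgctatcctg
Of the 50 genes, 41 were matched to a RefSeq promoter. A TOP tract stood at the start of 17 of these 41 genes (41.5%), against 3460 of all 27457 genes in the promoter table (12.6%). The letters CTTTCC, searched on both strands of the window, were present in 10 of the 41 genes (24.4%), against 831 of all 27457 (3.03%). On the gene's strand alone these were the same 10 genes, against 431 of 27457 (1.57%). The search for these letters was added outside the analysis plan, which held only the TOP tract. They can overlap a TOP tract, and 4 of the 10 genes also had one. Rpl11, Rpl24 and Rpl5 had no TOP tract by this definition, and Rpl5 held CTTTCC before its annotated start. A match of letters is a description of the annotated start only.

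The deposited signals had the same trimmed mean of 250.1 on each of the 7 arrays. The instrument files give 3 hybridization days, which are unevenly spread over the groups. Day 1 held 20 h replicate 1 and untreated replicate 1, day 2 held untreated replicate 2 alone, and day 3 held 20 h replicate 2, both 8 h arrays and untreated replicate 3. Untreated replicate 2 was stained at 25 °C for 600 s and the other 6 arrays at 35 °C for 300 s; the sample type in its instrument file is mouse, although its array type and labels are rat. The log2 ratio of the 3′ to the 5′ control probe sets of actin, a measure of RNA quality, was 1.42 and 1.39 at 8 h, 0.92 and 1.36 at 20 h, against 0.98, 0.73 and 1.19 in untreated testis; on day 3 it was 1.19 to 1.42 and on the other days 0.73 to 0.98.

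Most ribosomal protein genes had a bright probe set. Of the 46 genes, 40 had a mean signal of 1000 or more over the 7 arrays, with a span of 1595 to 12360. The other 6 were dimmer, at 34.4 to 602, namely Rps13, Rpl26l1, Rpl39, Rps27l, Rpl7l1 and Rpl37-ps2. A signal is not calibrated between probe sets, so levels are compared only within a probe set. The 5 probe sets that did not pass the filter were those of Rpl28, Rpl30, Rpl3l, a skeletal and heart muscle paralog of Rpl3, and Rps4x-ps1, and a second probe set of Rpl14, with mean signals of 3.99 to 17.7.

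The level of the ribosomal protein genes on an array, taken as the median over the 46 genes of the log2 value minus that gene's mean over the 7 arrays, varied among the animals of the untreated and the 20 h groups. It was -0.26, -0.26 and 0.16 on untreated replicates 1, 2 and 3, 0.17 and 0.15 on the 8 h arrays, and -0.15 and 0.19 on 20 h replicates 1 and 2. The 4 arrays above 0 were the 4 arrays of day 3, and the 3 below 0 were those of the other days. Of the 46 genes, 32 (69.6%) were higher on every day 3 array than on every array of the other days, against 10.6% of all 20857 probe sets, and 1, Rps27l, was lower on every one, against 18.7%. These 32 genes were 10 of 15 in the small subunit and 22 of 31 in the large subunit. By brightness they were 31 of the 40 genes with a mean signal of 1000 or more and 1 of the 6 dimmer ones. The median signal of an array was 72.0, 68.9 and 57.1 for untreated replicates 1, 2 and 3. It was 55.8 and 53.8 for the 8 h arrays, and 63.2 and 52.9 for 20 h replicates 1 and 2. The 4 lowest medians were those of day 3, although all 7 trimmed means were equal. Percentages of all probe sets, here and below, are not matched for brightness, and its part in this pattern was not tested.

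**Figure D1:**
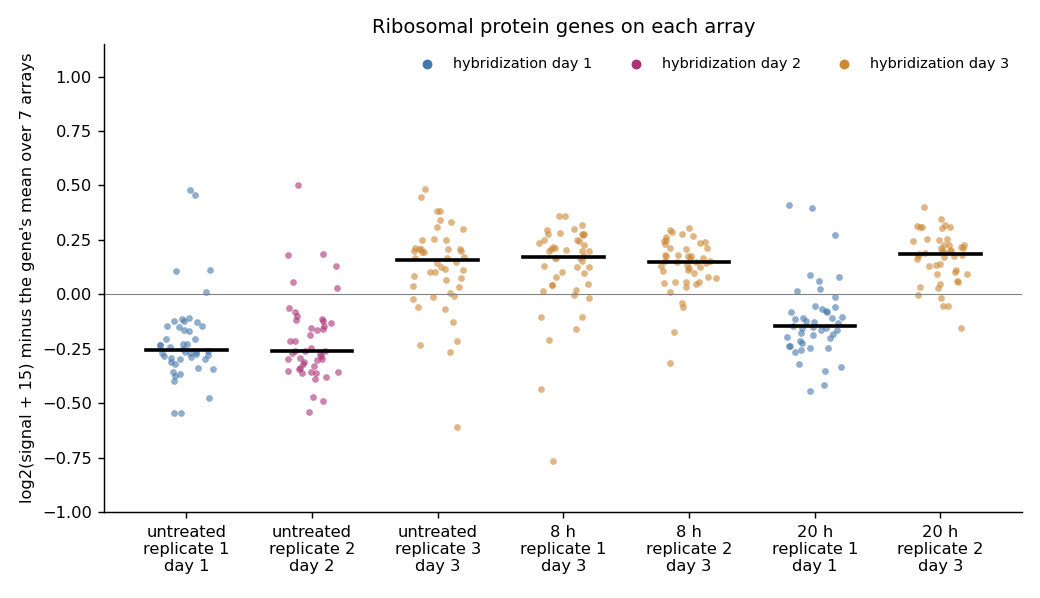
Log2 signal of each of the 46 ribosomal protein genes minus its mean over the 7 arrays, by array; points are genes, the bar is the median and colours give the hybridization day. The 4 arrays of day 3 have medians of 0.15 to 0.19 and the 3 arrays of the other days -0.26 to -0.15.

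The same step was seen between animals of a single group. Untreated replicate 3, of day 3, exceeded the mean of untreated replicates 1 and 2 in 41 of 46 genes, by a median of 0.42 on the log2 scale, over a range of -0.93 to 0.90. In the 20 h group, replicate 2, of day 3, exceeded replicate 1, of day 1, in 40 of 46 genes, by a median of 0.33. The 8 h arrays shared day 3, and there replicate 2 exceeded replicate 1 in 22 genes, with a median difference of -0.02. Untreated replicates 2 and 1, of different days, had a median difference of 0.03. Both 8 h arrays came from day 3 and only 1 of 3 untreated arrays did, so a comparison of groups alone carries the days with it. Day 3 and the other days also held different animals and differed in the actin ratio. Day, animal and RNA quality therefore cannot be told apart here.

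At 8 h the ribosomal protein genes had higher mean values than in untreated testis for 40 of 46 genes. Their log2 fold changes ranged over -0.54 to 0.48 around a median of 0.29, with a median SE of 0.18. Over all 20857 probe sets the median was -0.08, and 39.0% had a higher mean. No member passed an adjusted p of 0.05 in limma with Benjamini-Hochberg adjustment (0 of 52 probe sets, against 0.0% of all probe sets), and the lowest adjusted p of a member was 0.836. At an unadjusted p under 0.05, 6 genes were higher, against 1.16% of all probe sets, namely Rpl11, Rpl23a, Rpl35, Rpl41, Rpl5 and Rps29. Rps27l alone was lower, against 4.06%. Both 8 h arrays lay above all 3 untreated arrays in 20 genes (43.5%), against 7.59% of all probe sets, and below them in 1 gene, Rps27l, against 15.4%. After quantile normalization, which gives all arrays the same distribution of signals, the median fold change was 0.06 for the members and 0.01 for all probe sets.

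With the hybridization day as a block in the fit, the median at 8 h was 0.04, against -0.02 over all probe sets, and 28 of 46 genes were higher. The share of all probe sets that were higher in this fit was not counted, here or for the comparisons below. That fit compares arrays within days, so untreated replicate 2, alone on day 2, adds nothing to it. An unadjusted p under 0.05 was then reached by 4 genes in the higher direction, Rpl11, Rpl24, Rpl41 and Rpl5, against 3.48% of all probe sets, and by Rpl23 in the lower, against 2.63%. The median was -0.03 over the 15 small subunit genes, where it was 0.25 without the block, and 0.05 over the 31 large subunit genes, where it was 0.31.

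**Figure D2:**
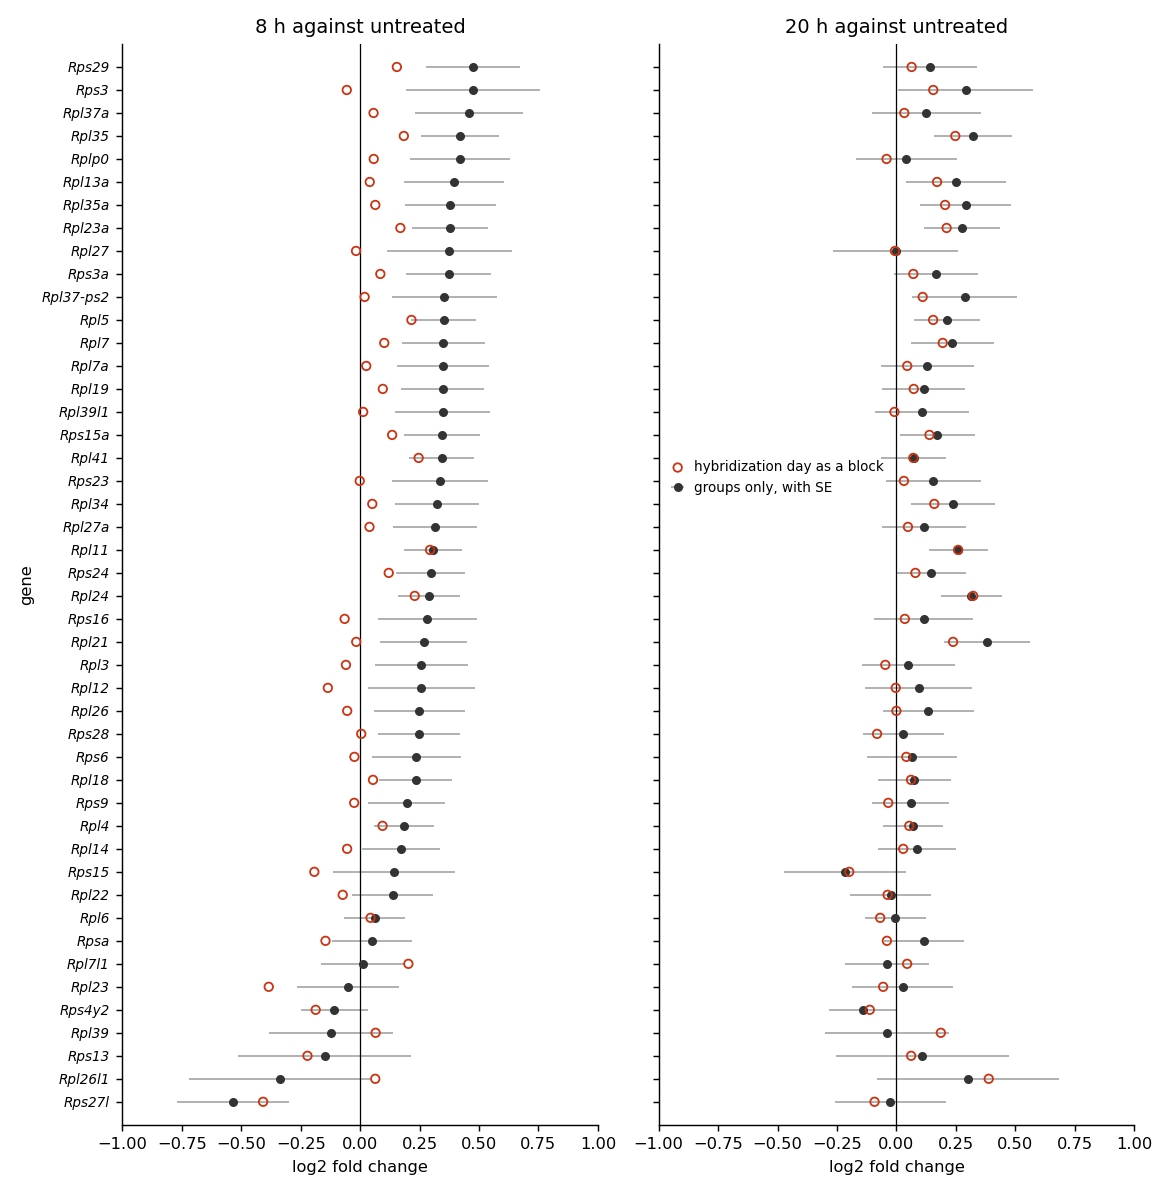
Log2 fold change of the 46 ribosomal protein genes at 8 h (left) and 20 h (right) against untreated testis, ordered by the value at 8 h; filled points are the fit by group with its SE as bars, open points the fit with hybridization day as a block. At 8 h most filled points lie right of 0 around a median of 0.29 and the open points around 0.04.

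At 20 h 38 of 46 genes had a higher mean than in untreated testis. Their log2 fold changes ranged over -0.22 to 0.38 around a median of 0.11; over all probe sets the median was -0.05 and 41.2% had a higher mean. No member passed the adjusted threshold in limma (0 of 52, against 0.0% of all probe sets; lowest adjusted p of a member 0.999). At an unadjusted p under 0.05 only Rpl24 was higher, against 0.767%, and no member was lower, against 2.34%. Both 20 h arrays lay above all untreated arrays for 3 genes, against 4.65% of probe sets, and below them for none, against 10.7%. With day as a block the median was 0.05, against -0.04 over all probe sets, and 31 genes were higher. In that fit 7 genes reached an unadjusted p under 0.05 in the higher direction (Rpl11, Rpl21, Rpl23a, Rpl24, Rpl35, Rpl35a and Rpl7, against 2.39% of all probe sets), 0 in the lower (3.35%). The 20 h and 8 h comparisons share the untreated arrays.

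The value at 20 h rested on which animal of the group was used. Without 20 h replicate 2, of day 3, the median was -0.03, and without replicate 1, of day 1, it was 0.32. Without untreated replicate 3 it was 0.26, and it was 0.05 without either of the other untreated animals. The 20 h replicate 1 animal also stood apart in the summed signal of 8 Leydig cell markers, which was 2625 on that array and 7484 on 20 h replicate 2, against 6188 to 8351 in untreated testis, with none listed at 0. The mean of 7 of these 8 markers was lower at 20 h than in untreated testis (median log2 fold change -0.60); their part in the ribosomal protein values was not tested.

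Between the times, 38 of 46 genes had a lower mean at 20 h than at 8 h, with a median of -0.14 and a range of -0.38 to 0.64, against a median of 0.02 and 52.6% higher over all probe sets. No member passed in limma with Benjamini-Hochberg adjustment (0 of 52, against 0.0%), and none had an unadjusted p under 0.05 in the higher (1.22%) or lower (0.7%) direction. Both 20 h arrays lay below both 8 h arrays in 10 genes, against 13.2% of probe sets, and above them in 3, against 15.2%, namely Rpl26l1, Rps27l and Rpsa. With day as a block the median was 0.03, against -0.02 over all probe sets, and 30 genes were higher. Of these, Rpl21 and Rpl23 had an unadjusted p under 0.05 (against 1.07% of all probe sets), while 0 of the lower ones had (2.08%). In the fit by group the median was 0.01 without 20 h replicate 1 and -0.30 without replicate 2. An F test over the 3 groups gave 0 members at an adjusted p under 0.05 (0.0%), and 0 at an unadjusted p under 0.05 (3.02%).

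Each cadmium array could be set against the untreated array hybridized that day. This holds the day fixed but rests on 1 control animal a day, whose own level enters every difference. On day 3 the actin log2 ratio was 1.19 for the control and 1.36 to 1.42 for the cadmium arrays, so this measure was not matched. The median of these same-day differences was 0.04 and 0.05 for 8 h replicates 1 and 2, and 0.08 and 0.02 for 20 h replicates 1 and 2, against medians of -0.00, -0.01, -0.06 and -0.02 over all probe sets. Higher than the same-day control were 31 and 26 of 46 genes at 8 h, against 49.8% and 48.5% of all probe sets, and 35 and 29 genes at 20 h, against 42.0% and 47.8%. Of the 184 differences, 138 lay within 0.2 of 0. All 4 differences were positive for 17 of 46 genes (37.0%), against 12.2% of all probe sets, and negative for 0, against 17.7%. The 17 genes were Rps15a, Rps24 and Rps3a of the small subunit and, of the large subunit, Rpl11, Rpl13a, Rpl18, Rpl19, Rpl23a, Rpl24, Rpl34, Rpl35, Rpl35a, Rpl37-ps2, Rpl37a, Rpl4, Rpl5 and Rpl7. Of the 4 differences 3 share untreated replicate 3, so they are not 4 independent comparisons.

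**Figure D3:**
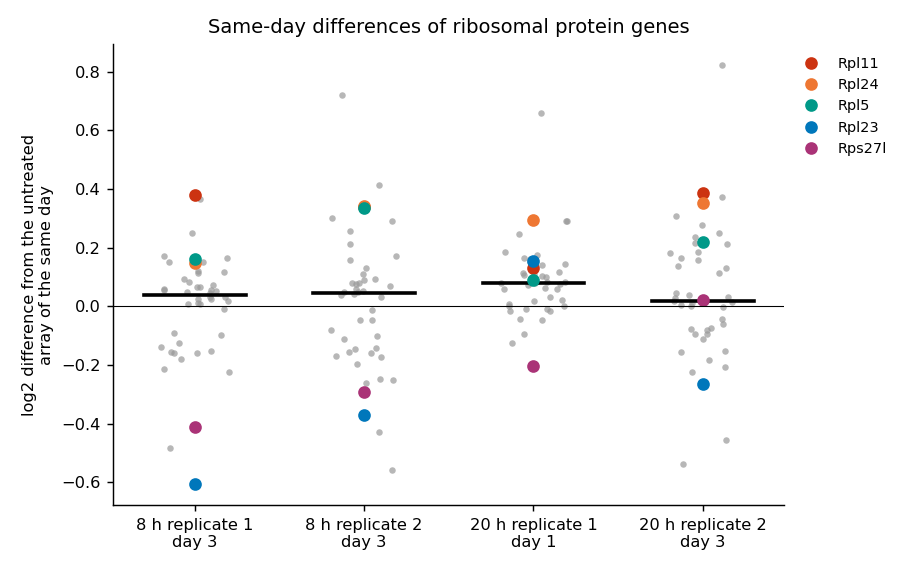
Log2 difference of each cadmium array from the untreated array of its hybridization day for the 46 ribosomal protein genes; points are genes and bars medians. Medians were 0.04 and 0.05 at 8 h and 0.08 and 0.02 at 20 h, and 138 of 184 points lie within 0.2 of 0.

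The members of the subunits had different medians on some arrays. In the small subunit the same-day median was 0.01 and -0.16 for the 8 h arrays and 0.08 and -0.08 for the 20 h arrays. In the large subunit it was 0.06 and 0.07 for the 8 h arrays and 0.08 and 0.11 for the 20 h arrays. On 8 h replicate 2, 4 of 15 small subunit genes and 22 of 31 large subunit genes were above the same-day control. The difference between the subunits was not tested.

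Rpl11, Rpl24 and Rpl5 were the members whose signal on all 4 cadmium arrays lay above all 3 untreated arrays, 3 of 46 genes against 1.82% of all probe sets; 0 members lay below on all, against 4.9%. Rpl5 and Rpl11 bind 5S ribosomal RNA in the large subunit, and outside the ribosome both bind and inhibit the p53 ligase MDM2 when ribosome assembly is disturbed. Rpl11 had a signal of 7718 and 7501 at 8 h and 6997 and 7766 at 20 h, against 6386.5, 6143 and 5934 in untreated testis. The untreated array of day 3 was the lowest of all 7, the reverse of the step between days seen in most members. The log2 fold change of Rpl11 was 0.31 ± 0.12 (SE) at 8 h and 0.26 ± 0.12 at 20 h, and its adjusted p in limma was 0.836 and 0.999. With day as a block it was 0.29 and 0.26.

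Rpl5 had a signal of 6796 and 7669.7 at 8 h, against 5713, 5221 and 6077 in untreated testis. At 20 h it had 6078.2 and 7076, and the lower of these was above the highest untreated array, at 6076.9, by less than the spread within any group. The log2 fold change of Rpl5 was 0.35 ± 0.14 (SE) at 8 h and 0.21 ± 0.14 at 20 h, and 0.22 and 0.15 with day as a block. Rpl24, a large subunit protein at the bridge between the subunits, had a signal of 4887 and 5586 at 8 h and 5025 and 5631 at 20 h, against 4098.5, 4317 and 4409 in untreated testis. The lowest cadmium animal was above the highest untreated one. For Rpl24 the log2 fold change was 0.29 ± 0.13 at 8 h and 0.32 ± 0.13 at 20 h (SE), with limma's adjusted p at 0.836 and 0.999, and 0.23 and 0.32 with day as a block. Over every setting and left-out array tried, the fold change of Rpl11 stayed between 0.06 and 0.41 at 8 h and 0.14 and 0.34 at 20 h, that of Rpl24 between 0.11 and 0.40 and 0.20 and 0.40, and that of Rpl5 between 0.11 and 0.46 and 0.10 and 0.32.

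Rpl35, a protein at the exit of the peptide tunnel, followed the days but remained above its same-day controls. Its signal was 2903 and 3079.7 at 8 h and 2442 and 3193 at 20 h, against 2144, 2009 and 2575.5 in untreated testis. The same-day differences were 0.17 and 0.26 at 8 h and 0.19 and 0.31 at 20 h on the log2 scale. Rpl21, a large subunit protein, had a signal of 3151 and 3695.5 at 20 h, against 2576, 2142 and 3245 in untreated testis, with overlap of the groups. At 20 h its log2 fold change was 0.38 ± 0.18 (SE), the top of the members' range, and 0.24 with day as a block.

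Rpl35a and Rpl19, both large subunit proteins whose TOP tracts are shown above, lay close to the untreated animal of day 3 at 8 h. Rpl35a had a signal of 7304 and 7175 at 8 h and 5884 and 7869 at 20 h, against 4958, 4935 and 7027 in untreated testis, and its log2 fold change at 8 h was 0.38 ± 0.19 (SE), and 0.06 with day as a block. Rpl19 had 5184 and 4929 at 8 h and 3662 and 5045 at 20 h, against 3579, 3749 and 4666 in untreated testis, with 0.35 ± 0.17 at 8 h and 0.10 with the block. In both genes every day 3 animal was above every animal of the other days. Rpl41, a very short basic peptide of the ribosome, had 10502 and 9454 at 8 h, against 7587, 7839.6 and 8150.3 in untreated testis, so the groups did not overlap, and 7500.5 and 9094 at 20 h, where they did. Its log2 fold change at 8 h was 0.34 ± 0.14 (SE), and 0.25 with day as a block.

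Rplp0, the base of the acidic stalk of the large subunit that recruits elongation factors, differed between day 3 and the other days. Its cadmium arrays lay close to their same-day controls. Its signal was 7263 and 7354.5 at 8 h, against 4709.7, 4866 and 7105 in untreated testis. At 20 h it was 4680.1 on day 1 and 6747 on day 3. Its log2 fold change was 0.42 ± 0.21 (SE) at 8 h and 0.04 ± 0.21 at 20 h, while its same-day differences were 0.03 and 0.05 at 8 h and -0.01 and -0.07 at 20 h. Rpl37a, a zinc-binding large subunit protein, had a signal of 9295 and 9253 at 8 h, against 5745, 5928 and 9012 in untreated testis, and a same-day difference of 0.04 on both 8 h arrays. Its log2 fold change was 0.46 ± 0.23 (SE) at 8 h and 0.06 with day as a block. Rpl13a, a large subunit protein released on interferon signalling to silence inflammatory mRNAs in human cells, had 2509 and 2638 at 8 h, against 1707, 1751 and 2493 in untreated testis; its fold change at 8 h was 0.39 ± 0.21 (SE), and 0.04 with the block. In these 3 genes the untreated animal of day 3 was close to the 8 h animals.

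In the small subunit, Rps29 and Rps3 had the highest fold changes at 8 h. Rps29, a zinc-binding protein of the small subunit head, had a signal of 15231 and 14038 at 8 h, against 9574, 9454 and 12811 in untreated testis. That gave a log2 fold change of 0.48 ± 0.20 (SE), with an adjusted p of 0.836 in limma, and 0.15 with day as a block. Rps3, which lines the mRNA entry channel, had a signal of 3170.2 and 3230.0 at 8 h, against 1829, 1899 and 3490.2 in untreated testis, so the untreated array of day 3 was above both 8 h arrays. Its fold change of 0.48 ± 0.28 became -0.06 with the block. Rps6, the target of the S6 kinases, had a signal of 10147 and 8871 at 8 h and 7235 and 9791 at 20 h, against 6837, 7796 and 9783 in untreated testis. Its fold change was 0.24 ± 0.19 at 8 h and 0.06 at 20 h, and 20 h replicate 2 differed from its same-day control by 0.00. Rpsa, which is also known as the laminin receptor, had a signal of 3040.0 and 2858 at 8 h and 3126 and 3046 at 20 h, against 2964, 2295 and 3398 in untreated testis, and fold changes of 0.05 ± 0.17 at 8 h and 0.11 ± 0.17 at 20 h.

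**Figure D4:**
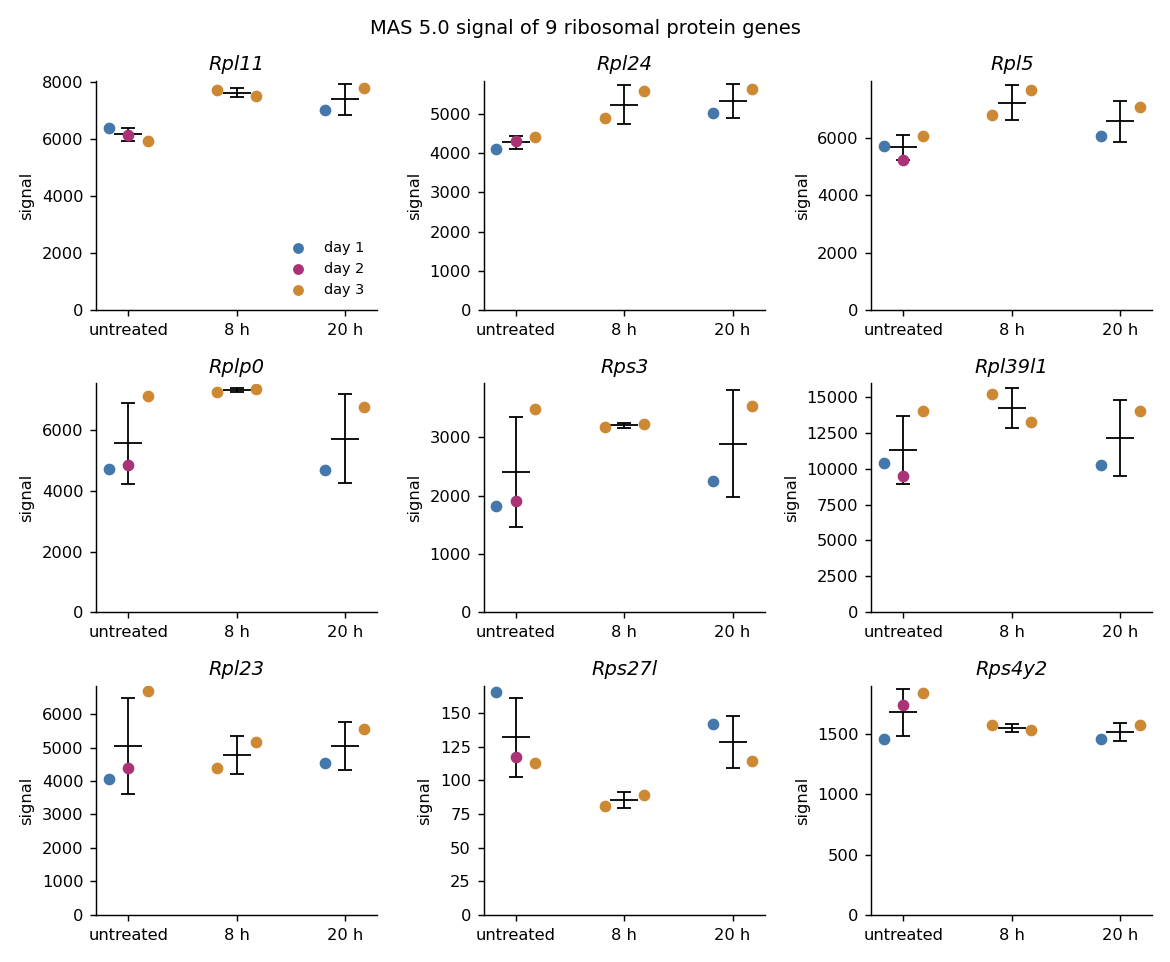
Deposited signal of 9 ribosomal protein genes in each untreated animal and each animal at 8 h and 20 h, with the group mean and SD; colours give the hybridization day. Rpl11, Rpl24 and Rpl5 are higher on all 4 cadmium arrays than on all 3 untreated ones, while in Rplp0 and Rps3 the day 3 animals of each group lie together.

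On both 8 h arrays 23 of the 46 genes were higher than the same-day control and 12 were lower, while 11 had differences of opposite sign. Of the 12 lower genes, 10 were among the 40 brighter ones. The shares of all probe sets higher and lower on both 8 h arrays were not counted, and both arrays share 1 control animal. Rpl23, a large subunit protein that can also bind MDM2, had a signal of 4382 and 5167 at 8 h, against 4070.2, 4397.5 and 6686 in untreated testis, where the day 3 animal was the high one. Its log2 fold change at 8 h was -0.05 ± 0.21 (SE), and -0.38 with day as a block. Rps15, a protein of the small subunit head, had a signal of 4502 and 6139 at 20 h, against 4318, 6261 and 8436 in untreated testis. Its fold change at 20 h was -0.22 ± 0.26, the bottom of the range, and its differences from the same-day control were 0.06 on day 1 and -0.46 on day 3. Rps15 was also among the lowest at 20 h against 8 h, at -0.36 ± 0.28, as were Rplp0 at -0.38 ± 0.23, Rpl27, a large subunit protein, at -0.38 ± 0.29, Rps29 at -0.34 and Rpl37a at -0.33. Rpl22, an RNA-binding protein of the large subunit, had fold changes of 0.14 ± 0.17 at 8 h and -0.02 at 20 h.

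Several of the dimmer members are paralogs. Over the 6 dim genes the median log2 fold change was -0.14 at 8 h and 0.04 at 20 h, against 0.31 and 0.12 over the 40 brighter ones. With day as a block this gap was gone at 8 h, with 0.04 in both, and turned round at 20 h, with 0.09 over the dim genes against 0.05 over the brighter ones. Rps27l, a paralog of Rps27 that p53 induces in human cells, had a signal of 81.0 and 89.3 at 8 h and 141.8 and 114.5 at 20 h, against 165.7, 117.2 and 112.7 in untreated testis. Both 8 h arrays lay below every other array, and the log2 fold change at 8 h was -0.54 ± 0.23 (SE), with an adjusted p of 0.836 in limma. Against the same-day control the 8 h differences of Rps27l were -0.41 and -0.29.

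Rpl39l1, a paralog of Rpl39 in the large subunit's exit tunnel, had a signal of 15171 and 13225 at 8 h and 10264 and 13994 at 20 h, against 10379, 9499 and 14004 in untreated testis. Its log2 fold change was 0.35 ± 0.20 (SE) at 8 h and 0.01 with day as a block. The probe set of Rpl39 itself was dim, with 115.6 and 142.2 at 8 h, against 123.4, 199.2 and 113.4 in untreated testis, and a fold change of -0.12 ± 0.26. Its signal cannot be compared in level with that of Rpl39l1. Rps4y2, a gene of the Rps4 family of small subunit proteins, had 1571 and 1527 at 8 h, against 1460.5, 1739.7 and 1836 in untreated testis, a fold change of -0.11 ± 0.14, and -0.14 ± 0.14 at 20 h. Rpl26l1, a paralog of Rpl26, had 93.8 and 80.0 at 20 h, against 33.1 and 73.5 at 8 h, a fold change of 0.64 ± 0.42. With day as a block that fold change was 0.32, and the untreated signals of Rpl26l1 were 97.4, 78.1 and 38.7. Rps13, a small subunit protein, had 49.0 and 28.7 at 20 h, against 30.3 and 28.1 at 8 h, a fold change of 0.26. Rpl7l1, a paralog of Rpl7, had fold changes of 0.01 ± 0.18 at 8 h and -0.04 at 20 h.

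Of the 46 genes, 5 had more than 1 probe set past the filter, namely Rpl3, Rps24, Rpl7, Rpsa and Rpl7l1. Those of Rpl3, a large subunit protein that reaches toward the catalytic centre, disagreed. The brighter had 4547 and 4799 at 8 h, against 3392, 3411 and 5146 in untreated testis, a log2 fold change of 0.26 ± 0.20 (SE). The dimmer had 191.2 and 87.4 at 8 h, against 398.7, 308.4 and 57.4, a fold change of -0.55 ± 0.68. The dimmer one's name ending marks probes that can bind other transcripts, a mark that no probe set standing for a gene here carries. For Rps24, a small subunit protein, the brighter probe set had a fold change of 0.30 ± 0.14 at 8 h and -0.15 ± 0.16 at 20 h against 8 h, and a dim second one had -0.09 ± 0.41 and 0.58 ± 0.45. The probe sets of Rpl7, a large subunit protein, had 0.35 ± 0.17 and 0.00 ± 0.28 at 8 h. For Rpsa the fold change at 20 h was 0.11 for the probe set used and 0.08 and -0.09 for the others, and for Rpl7l1 it was -0.04 for the probe set used and -0.16 for the other.

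The other lists of the translation machinery had smaller medians in the fit by group but not in every case with day as a block, and 0 genes of any list passed an adjusted p of 0.05 in limma in any comparison. Of 13 measured genes for elongation factors and other TOP mRNAs, 12 were higher at 8 h (median log2 fold change 0.19) and 11 at 20 h (0.09); with day as a block the medians were -0.01 and 0.02. Eef1a1, which brings aminoacyl-tRNA to the ribosome, had a signal of 9492 and 10171 at 8 h, against 8385, 7699.6 and 9753 in untreated testis, a fold change of 0.20 ± 0.15 (SE). Of 29 initiation factors 18 were higher at 8 h (median 0.14) and 24 at 20 h (median 0.08); with the block the medians were 0.06 and 0.08, above the 0.04 and 0.05 of the ribosomal protein genes. Of 41 genes for ribosome assembly and RNA polymerase I, 27 were higher at 8 h (median 0.10) and 28 at 20 h (median 0.06), with 0.05 and 0.04 under the block. In that list Polr1d, a subunit shared by RNA polymerases I and III, had 3861 and 3564 at 8 h, against 2287, 2464.5 and 3066 in untreated testis, a fold change of 0.52 ± 0.18; it was picked after its values were seen, and its 4 same-day differences were 0.33, 0.22, 0.26 and 0.32. Of 17 genes of the mTOR and S6 kinase pathway 9 were higher at 8 h (median 0.05) and 6 at 20 h (median -0.06), with 0.03 and -0.04 under the block.

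Genes for other housekeeping complexes and for spermatids differed between day 3 and the other days in the same direction. Of 73 mitochondrial ribosomal protein genes 56 were higher at 8 h (median log2 fold change 0.12, and -0.08 with day as a block). On every day 3 array 32 of them were higher than on every array of the other days, against 10.6% of all probe sets. Of 77 respiratory chain genes 62 were higher at 8 h (median 0.16, and -0.05 with the block) and 50 followed the days in that way. Of 37 proteasome genes 32 were higher (median 0.11, and -0.05 with the block) and 18 did so. Of 14 measured spermatid markers, among them the protamines and Odf1, all 14 were higher at 8 h (median 0.31) and at 20 h (median 0.12). With day as a block these medians were -0.02 and 0.01. On every day 3 array 13 of the markers were higher than on every array of the other days. Other cell types had smaller shares: 1 of 7 markers in spermatocytes, 1 of 4 in spermatogonia and 2 of 8 in Sertoli cells. Leydig markers gave 3 of 8, endothelial 0 of 9, macrophage and leukocyte 1 of 6 and red cell 0 of 2. Of the 17 mTOR and S6 kinase genes 2 were higher in this way. Lower on every day 3 array than on the others were 1 spermatocyte, 3 Sertoli and 2 endothelial markers and 4 of these 17 genes. Above the same-day control were 8 and 4 of the 14 spermatid markers on 8 h replicates 1 and 2, and 6 and 8 on 20 h replicates 1 and 2. Their summed signal was 217171 to 224206 at 8 h and 159937 to 229586 at 20 h, against 150286 to 222333 in untreated testis, and none was listed at 0. The part of spermatid RNA and RNA quality in the ribosomal protein values was not tested.

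**Figure D5:**
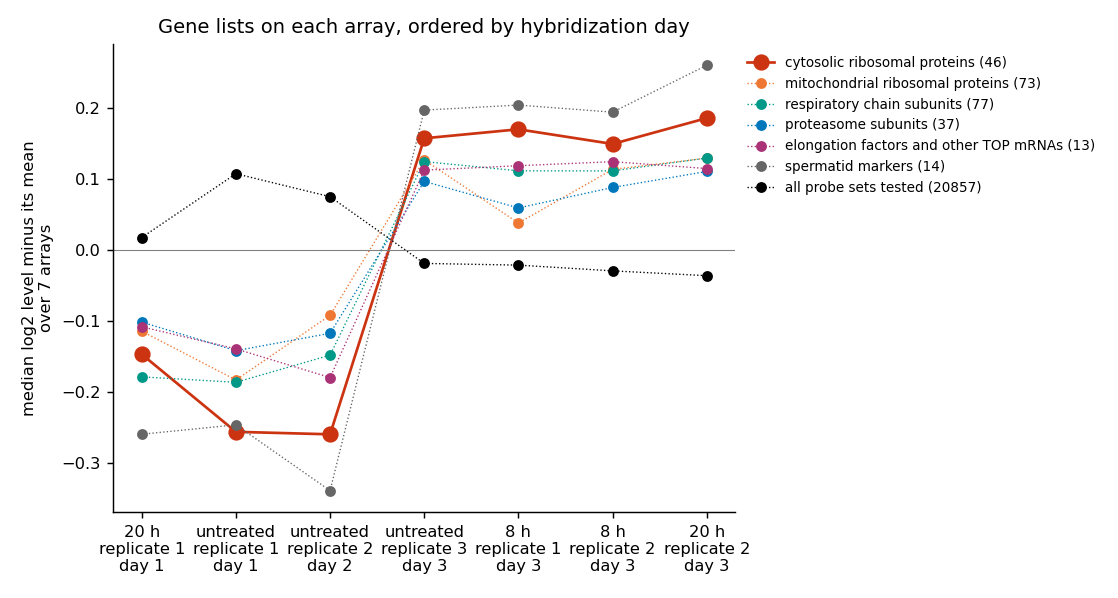
Median log2 level, relative to the mean of the 7 arrays, of the ribosomal protein genes and of other gene lists on each array, ordered by hybridization day; lines only join the points of a list. The ribosomal protein genes lie at -0.26 to -0.15 on days 1 and 2 and at 0.15 to 0.19 on day 3, and the spermatid markers at -0.34 to -0.25 and 0.19 to 0.26.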

How the data were processed

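Testis RNA of 7 rats was measured on 7 arrays. The deposited values are MAS 5.0 signal intensities per probe set on a linear scale, per the labels' series text, which also names GeneSpring 7.2; scaling to a common trimmed mean (2% at each end) was read from the values. The deposited instrument files hold other information, namely settings, from which hybridization day and staining were read. The sources used here give no build for the probe sets; sequences and their coordinates are RefSeq's, in GRCr8.

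Genes were named from the platform annotation: 20826 probe sets name 1 gene, 436 several and 9780 none, and only the first kind could be members. The Entrez IDs of 48 of the 50 member genes were in the RefSeq table, and 0 symbols changed. Before taking log2, 15 was added to each signal, which is the table's 20th percentile, so fold changes of dim probe sets are understated. The filter required a signal over the 40th percentile of the array in 2 or more animals and left 20857 probe sets for 11552 genes. A gene was represented by the probe set with the highest mean log2 value. One limma model (version 3.58.1, R 4.3.3; eBayes with its trend option) held all 3 groups. Benjamini-Hochberg adjustment ran over every probe set left by the filter, and an adjusted p under 0.05 was called. The fit code was tested on simulated data. Same-day differences subtract the untreated array of a day from each cadmium array of that day. Medians and counts over the members are descriptions beside those of all probe sets; no test was made over the list.

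Replicates are animals, which the labels call biological replicates; their number limits the precision, and an intensity gives no counting depth. Named genes were the 5 highest and 5 lowest members per comparison, members past the adjusted threshold, and a fixed set of 29, of which Rplp1, Rplp2, Rps19, Rps14 and others had no probe set of their own symbol alone and were not analysed here. Genes outside this rule, named for a small count or for a printed promoter, and Polr1d, were picked with their values in view. The members, the gene lists and the rules were chosen with earlier results of these data known. Alternatives were other pseudocounts (5 and 50), filters (none and the 60th percentile), quantile and 75th percentile scaling, blocks for day and replicate number, other choices of probe set, and leaving out each array.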

Additional observations from a re-analysis of the deposited data

Results flagged for a closer look

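Among the named genes, Rplp0 and Rps3 had same-day log2 differences of one sign on both 8 h arrays and the other on both 20 h arrays. Rplp0 had -0.01 and -0.07 at 20 h, against 0.03 and 0.05 at 8 h, so the mean at 20 h minus that at 8 h was -0.08. Rps3 had 0.29 and 0.02 at 20 h, against -0.14 and -0.11 at 8 h, with a mean of 0.28 for 20 h minus 8 h. Rpl6, outside the named genes, switched sign too, with -0.09 and -0.04 at 20 h, against 0.06 and 0.06 at 8 h. Several of these values lay close to 0, and the share of all probe sets with such a switch was not counted. These same-day differences between the times were not tested, and 3 of the 4 arrays share a control animal.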

How the results depend on the processing

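The count of ribosomal protein probe sets past the adjusted threshold was 0 under every alternative run. The median log2 fold change of the members at 8 h was 0.29. It was 0.060 after quantile normalization, 0.40 after scaling to a common 75th percentile and 0.040 with hybridization day as a block. Over all probe sets the median at 8 h was -0.08 in the fit by group. In those settings, in the same order, it was 0.01, 0.02 and -0.02. For the members, quantile normalization gave 0.02 at 20 h and -0.04 at 20 h against 8 h. Leaving out each array in turn gave 0.22 to 0.41 at 8 h, -0.03 to 0.32 at 20 h and -0.30 to 0.01 at 20 h against 8 h. Over all probe sets the number called was 0 to 1, 0 to 8 and 0 to 1 in these comparisons when an array was left out, with 8 at 20 h without 20 h replicate 2, 1 at 8 h without 8 h replicate 2, and 1 at 20 h against 8 h without either 8 h replicate 2 or 20 h replicate 2; where a group then held 1 array, it was assumed to vary like the others. The replicate number as a block gave medians of 0.41, 0.26 and -0.14 and 0 calls. It leaves untreated replicate 3 without a partner, and replicate 1 minus replicate 2 correlated across 20857 probe sets at -0.00 between 8 h and untreated, 0.09 between 20 h and untreated and 0.14 between 20 h and 8 h, so the numbers were not taken to pair the animals. Of the 23 named genes, 13 changed sign under some alternative against untreated testis at 8 h, 17 did so at 20 h and 15 for 20 h against 8 h, and the calls of 0 changed. Groups of 2 and 3 animals, with days unevenly spread over them, limit what can be seen; signals near the pseudocount, as for Rps13, carry little of the change of their transcripts.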

Other observations

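Beside the members, 36 probe sets carry a ribosomal protein symbol together with other symbols, so their signal belongs to no single gene; 35 passed the filter. Their median log2 fold change was 0.29 at 8 h, with 34 of 35 higher, and 0.14 at 20 h, with 31 higher. Over all probe sets 39.0% and 41.2% were higher. The median level of the shared probe sets was -0.26, -0.29 and 0.17 on untreated replicates 1, 2 and 3. It was 0.20 and 0.18 on the 8 h arrays, and -0.16 and 0.20 on the 20 h arrays. On every day 3 array 32 of the 35 were higher than on every array of the other days, against 10.6% of all probe sets. Values with day as a block were not summarised for them.

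Among the 32 member genes higher on every day 3 array, 25 had a RefSeq promoter; 12 of these had a TOP tract and 5 held CTTTCC. Of the other 14 genes, all 14 had a promoter, 4 had a TOP tract and 4 held CTTTCC. Of 11 listed markers of endothelial cells, which line the vessels, 9 were measured. They summed to a signal of 448 and 710 at 8 h and 533 and 765 at 20 h. The sums were 905, 972 and 885 on untreated replicates 1, 2 and 3. Their median same-day difference was -0.68 and -0.19 on 8 h replicates 1 and 2, with 1 and 2 of the 9 higher. On 20 h replicates 1 and 2 it was -1.06 and 0.02, with 2 and 5 higher. The part of these markers in the ribosomal protein values was not tested.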
